A study of Mus musculus with 8 samples.

Results

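The expression of 10 genes that Wnt and beta-catenin signalling is known to drive in the liver was followed through 8 RNA sequencing libraries of mouse liver. They were taken by name from the deposited table of read counts: Glul, Slc1a2 and Rhbg, which handle glutamine, glutamate and ammonium, Axin2, Nkd1, Rnf43 and Znrf3, which feed back on the pathway, the receptor Lgr5, the transcription factor Tbx3 and the secreted protein Lect2. All 10 are among the 37583 genes of the table, and all 10 passed the filter on low counts that left 17362 genes for testing. The rule goes by name and uses no measured value, although earlier results of these data were known when the genes were listed. The tissue came from 8-month-old mice of the C57BL6/CBA strain. The PR-SET7_LOBE group (n = 4) carries the genotype label PR-SET7_LX_ALB_CRE, which names a Cre recombinase under the albumin promoter. That promoter is active in hepatocytes, so loss of the Pr-Set7 gene, which encodes a histone H4 methyltransferase, is expected mainly in these cells. The labels do not say which other cells of the liver keep the gene. The labels do not explain the word LOBE. The DEN_WT group (n = 2) consisted of wild-type mice that received an intraperitoneal injection of the liver carcinogen diethylnitrosamine (DEN) on postnatal day 15, at a dose labelled 25 ml per kg with no concentration. The WT group (n = 2) was untreated. The labels do not say whether tumour or surrounding tissue was taken, nor that the replicates came from separate animals. The p-values therefore reflect only how far these samples spread, part of which may be technical.

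In the absence of a Wnt ligand, a complex built on Axin and Apc marks beta-catenin for destruction. When a ligand binds a Frizzled receptor with Lrp5 or Lrp6, beta-catenin accumulates, enters the nucleus and switches on target genes together with Tcf and Lef proteins. R-spondins bound to Lgr4 or Lgr5 strengthen the signal by removing the ubiquitin ligases Rnf43 and Znrf3, which otherwise clear Frizzled from the cell surface. In the liver lobule the endothelium of the central vein releases Wnt ligands and R-spondin 3, and the hepatocytes next to it switch on Glul, Slc1a2, Rhbg, Axin2, Lgr5 and other targets. Hepatocytes near the portal vein carry out urea synthesis and gluconeogenesis instead.

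Tcf and Lef proteins bind sites that hold the letters CTTTGAT or CTTTGAA. Both were searched on both strands in the RefSeq promoter windows of the GRCm38.p6 build, which run from 250 bases before to 50 bases after each annotated start. An entry was found for 6 of the 10 genes, with 7 windows in all, and 2 of the 7 held the motif, against 8.65% of all 32851 windows. The windows of Slc1a2 (chr2:102706188-102706487, plus strand) and Lect2 (chr13:56548489-56548788, minus strand) are shown because they hold the motif, and that of Glul (chr1:153899679-153899978, plus strand) because Glul was the most abundant of the genes. Capitals mark the motif, read as ATCAAAG on the strand of the gene. It begins at position -207 from the start in Slc1a2 and at position -32 in Lect2. The windows of Glul, Axin2, Rnf43 and Nkd1 do not hold these letters, which says nothing of sites elsewhere in these genes.
Slc1a2 promoter: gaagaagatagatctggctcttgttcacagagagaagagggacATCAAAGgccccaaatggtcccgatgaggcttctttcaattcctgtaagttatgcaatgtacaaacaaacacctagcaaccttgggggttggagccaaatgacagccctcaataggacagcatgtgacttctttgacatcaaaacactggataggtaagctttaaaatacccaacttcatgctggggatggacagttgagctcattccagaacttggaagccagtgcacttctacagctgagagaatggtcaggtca
Lect2 promoter: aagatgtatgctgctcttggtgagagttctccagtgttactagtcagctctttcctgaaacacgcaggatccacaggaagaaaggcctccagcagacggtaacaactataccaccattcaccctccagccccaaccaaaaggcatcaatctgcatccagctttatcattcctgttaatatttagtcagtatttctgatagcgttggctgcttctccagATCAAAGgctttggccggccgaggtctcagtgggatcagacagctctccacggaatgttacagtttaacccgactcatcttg
Glul promoter: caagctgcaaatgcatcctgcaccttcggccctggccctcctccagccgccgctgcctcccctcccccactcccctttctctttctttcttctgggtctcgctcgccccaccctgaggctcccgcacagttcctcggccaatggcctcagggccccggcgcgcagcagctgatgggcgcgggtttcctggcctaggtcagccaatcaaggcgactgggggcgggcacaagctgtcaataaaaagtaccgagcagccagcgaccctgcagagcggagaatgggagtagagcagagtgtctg

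The libraries held from 7305595 to 16108081 counts. At these depths 3 counts correspond to between 0.186 and 0.411 CPM (counts per 1000000 counts of the library) before scaling, and such floors cover counting error only. The levels below are CPM after scaling of library sizes by the trimmed mean of M values (TMM), and genes are described as rising or falling only at an adjusted p under 0.05 in edgeR's quasi-likelihood test. Setd8, the gene of Pr-Set7, had 62.6, 57.4, 47.9 and 46.5 CPM in PR-SET7_LOBE libraries, 40.0 and 42.8 CPM in DEN_WT libraries and 51.9 and 56.0 CPM in WT libraries. The deleted exons are not named and the counts cover the whole gene, so these values do not check the genotype. PR-SET7_LOBE replicate 1 stood apart from its group: over all tested genes its mean correlation was 0.923 with the WT libraries and 0.89 with the other PR-SET7_LOBE libraries. The summed hepatocyte markers reached between 60900 and 187300 CPM in PR-SET7_LOBE libraries, 161700 and 196700 CPM in DEN_WT libraries and 159500 and 187300 CPM in WT libraries, and none of the 9 markers matched was at 0 in all libraries.

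Glul was lower in every PR-SET7_LOBE and DEN_WT library than in both WT libraries, Lgr5 was lowest in the 2 DEN_WT libraries, and Axin2, Lect2 and Slc1a2 overlapped with WT in both groups. None of the 10 genes passed the threshold against WT, and Lgr5 passed between PR-SET7_LOBE and DEN_WT. Counted over the 10 genes, 0 passed in PR-SET7_LOBE against WT, where 0.248% of all tested genes passed (edgeR, either direction). Of those, 26 rose and 17 fell, and with upper-quartile scaling 47 rose and 19 fell. The split was turned in limma voom, with 76 higher and 140 lower, in the fit of only the 2 groups, with 8 higher and 11 lower, and without WT replicate 1 or replicate 2, with 0 higher and 8 or 1 lower. In DEN_WT against WT, 0 of 10 passed against 9.73% of all genes, and in PR-SET7_LOBE against DEN_WT, 1 of 10 passed against 11.1% of all genes. Lgr5 was higher in PR-SET7_LOBE, as were 4.82% of all genes at the same threshold. At an unadjusted p under 0.05 the counts were 1, 3 and 1 of 10 genes, where all tested genes gave 17.2%, 28.9% and 25.8%. DESeq2 called 0, 1 and 1 of the 10 genes in these comparisons, beside 5.13%, 18.1% and 16.4% of all genes, and limma voom called 0, 4 and 1, beside 1.24%, 36.3% and 29.7%. In all, 7 of the 10 genes were lower in both DEN_WT libraries than in both WT libraries, namely all but Axin2, Slc1a2 and Lect2, and 33.3% of all tested genes were lower in this way. In PR-SET7_LOBE, Glul alone lay below WT in every library, where 10.5% of all genes did, and Lgr5 alone lay above DEN_WT in every library, where 19.3% of all genes did.

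The log2 fold change was below 0 for 8 of the 10 genes in PR-SET7_LOBE against WT, with a median of -0.45, while the median of all tested genes was 0.11 and 54.6% of them were above 0. The median of the 10 genes was -0.75 without PR-SET7_LOBE replicate 1, -0.19 without replicate 2 and -0.26 without replicate 3 of that group, and it was -0.67 in limma voom and -0.29 with the stricter filter of 5 CPM. In DEN_WT against WT it was below 0 for 9 of the 10 genes, with a median of -0.999, against 0.06 for all tested genes, of which 51.5% were above 0. Other scalings gave fewer negative values: 6 of 10 with upper-quartile scaling in PR-SET7_LOBE against WT, where the median was then -0.28 and that of all genes 0.29, and 8 of 10 in DEN_WT against WT with upper-quartile scaling or DESeq2 size factors. After GC correction 9 of 10 were below 0 in DEN_WT against WT, with a median of -0.51, and without WT replicate 1 the median was -0.51 as well. PR-SET7_LOBE against DEN_WT gave 2 of 10 below 0 and a median of 0.56, against 0.18 for all tested genes, of which 57% were above 0. After GC correction 3 of 10 were below 0 there, with a median of 0.23, and the median was 0.35 in limma voom, 0.25 without PR-SET7_LOBE replicate 1 and 0.37 without DEN_WT replicate 1. The comparisons share libraries and are not independent of each other.

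Per kilobase of annotated exons, with all exons of a gene merged, Glul was the most abundant of the 10 genes in all 3 groups and Lgr5 the least abundant. The order depends on this length: before the division, Lgr5 lay inside the range of Axin2 in WT libraries. Glul averaged 66.9 CPM per kilobase in PR-SET7_LOBE libraries, 62.6 in DEN_WT libraries and 156 in WT libraries. Lgr5 averaged 0.781 CPM per kilobase in PR-SET7_LOBE libraries, 0.215 in DEN_WT libraries and 0.768 in WT libraries. Lect2 stood next to Glul in all 3 groups, at 21.0 CPM per kilobase in PR-SET7_LOBE, 24.9 in DEN_WT and 23.7 in WT libraries, and was followed by Rhbg and Rnf43. In WT libraries these 4 genes did not overlap with their next neighbours in the order, whereas Slc1a2, Tbx3, Nkd1, Znrf3 and Axin2 each overlapped with the next. In PR-SET7_LOBE libraries only Rnf43 and Slc1a2 were neighbours without overlap. In DEN_WT libraries Lgr5 lay below Axin2 without overlap, at 0.155 to 0.276 CPM per kilobase against 0.561 to 0.804 for Axin2.

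**Figure D1:**
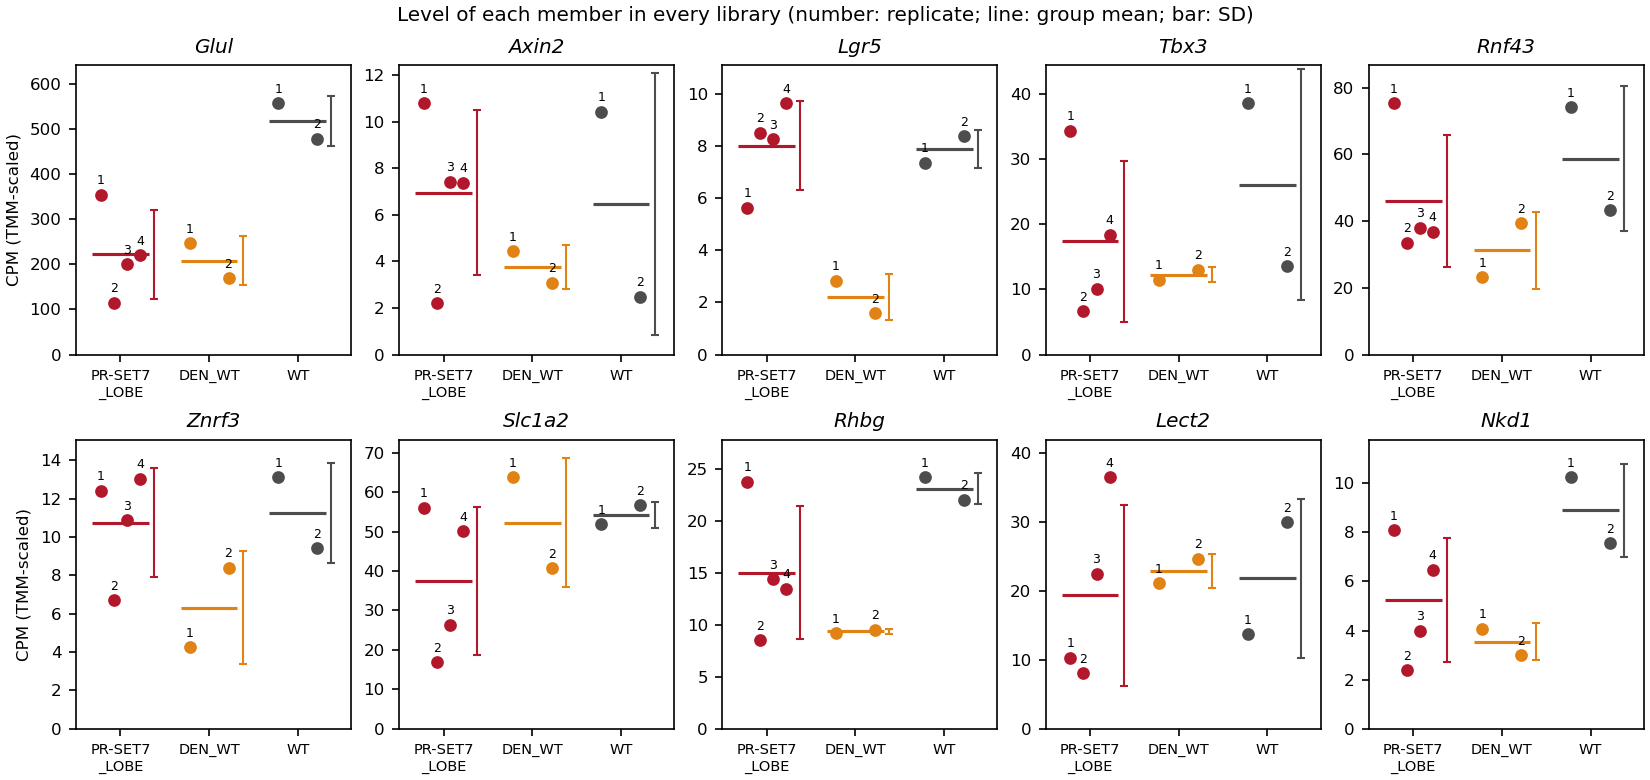
Level of each of the 10 genes in every library, in CPM on a linear axis that starts at 0, with the replicate number above each point, the group mean as a line and the SD as a bar. Glul lies below both WT libraries in all 4 PR-SET7_LOBE and both DEN_WT libraries, and Lgr5 is lowest in the 2 DEN_WT libraries, at 2.83 and 1.59 CPM.

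Glul (chr1:155747074-155756853, plus strand, mm9) encodes glutamine synthetase, which joins ammonium to glutamate in the layer of hepatocytes around the central vein. It had 354, 115, 200.1 and 220.4 CPM in the 4 PR-SET7_LOBE libraries, 247 and 169.5 CPM in the 2 DEN_WT libraries, and 557 and 479 CPM in the 2 WT libraries. The means were 222 ± 98.9 CPM in PR-SET7_LOBE (SD, n = 4), 208 ± 54.6 CPM in DEN_WT and 518 ± 55.6 CPM in WT (SD, n = 2 each). Every PR-SET7_LOBE and DEN_WT library lay below both WT libraries, and the PR-SET7_LOBE and DEN_WT libraries overlapped. The log2 fold change was -1.22 (SE 0.45, 95% interval -2.21 to -0.23) for PR-SET7_LOBE against WT, with an unadjusted p of 0.0199 and an adjusted p of 0.226 in edgeR's test. For DEN_WT against WT it was -1.32 (SE 0.54, unadjusted p = 0.0342, adjusted p = 0.142, edgeR), so neither difference passed the threshold. Both comparisons use the same 2 WT libraries. Without PR-SET7_LOBE replicate 1, the highest of its group, the Glul difference from WT passed the threshold at -1.53 on the log2 scale (adjusted p = 0.0315, edgeR), in a fit that called 13.9% of all genes. RNA of whole liver tissue cannot tell apart fewer Glul-expressing cells and less Glul RNA per cell. The 5 erythroid markers summed to 188 to 705 CPM in PR-SET7_LOBE libraries, 458 to 646 CPM in DEN_WT libraries and 1014 to 1496 CPM in WT libraries, so these sums lay below WT too, and no single erythroid marker passed against WT. The 8 stellate cell markers summed to 186 to 246 CPM in PR-SET7_LOBE libraries, 206 to 356 CPM in DEN_WT libraries and 136 to 168 CPM in WT libraries, so the sums lay above WT. Single stellate markers did not all follow the sum: Reln and Des overlapped with WT in both groups, and Ngfr, the only one to pass, fell by 2.69 on the log2 scale in DEN_WT against WT (adjusted p = 0.0229, edgeR). That call was lost without any 1 of the 4 DEN_WT and WT libraries (adjusted p between 0.0526 and 0.165). The part of erythroid and stellate cells in the Glul values was not tested. Of all tested genes, 4.54% fell in DEN_WT against WT at the threshold that Ngfr passed.

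A copy of Glul, the pseudogene Glns-ps1, is 96.8% identical to it over 1126 bases, so reads could be split between them. A second copy, AC134576.3, is 95.8% identical over 336 bases and was not analysed here. Glns-ps1 had 2.54, 1.43, 1.76 and 2.19 CPM in PR-SET7_LOBE libraries, 22.2 and 17.8 CPM in DEN_WT libraries and 1.72 and 4.89 CPM in WT libraries. It took 8.26% and 9.48% of the summed Glul and Glns-ps1 counts in the DEN_WT libraries and between 0.308% and 1.23% in the other 6. On the log2 scale Glns-ps1 rose by 2.59 in DEN_WT against WT (SE 0.60, adjusted p = 0.0228, edgeR) and was lower in PR-SET7_LOBE than in DEN_WT, at -3.33 on the log2 scale (adjusted p = 0.00182, edgeR), while Glul itself passed in neither comparison. The first of these calls was lost without WT replicate 1 (adjusted p = 0.144) or either DEN_WT library (0.146 and 0.11). With the counts of both summed, the log2 fold change was -1.19 for DEN_WT against WT (adjusted p = 0.173, edgeR) and -1.22 for PR-SET7_LOBE against WT (adjusted p = 0.226, edgeR). Glul also overlaps A930039A15Rik on its own strand and 2 genes annotated on the opposite strand, and the strand setting of the counting is not given in the sources used here.

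Rhbg (chr3:88046796-88091132, minus strand, mm9) encodes an ammonium transporter of the hepatocyte membrane. It had 23.8, 8.51, 14.4 and 13.5 CPM in PR-SET7_LOBE libraries, 9.21 and 9.54 CPM in DEN_WT libraries, and 24.2 and 22.04 CPM in WT libraries. The DEN_WT libraries lay close together and below both WT libraries, while PR-SET7_LOBE replicate 1 reached the WT level and the other 3 did not. The log2 fold change was -0.62 (SE 0.41) for PR-SET7_LOBE against WT and -1.30 (SE 0.49) for DEN_WT against WT, with adjusted p-values of 0.433 and 0.111 in edgeR's test. Rhbg shares 99.9% of 1193 bases with the annotated gene Gm38392, which was not analysed here, and it overlaps another gene on either strand, so its values are uncertain.

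Slc1a2 (chr2:102498816-102630941, plus strand, mm9) encodes a glutamate transporter that is enriched around the central vein. It had 56.1, 16.8, 26.4 and 50.1 CPM in PR-SET7_LOBE libraries, 63.8 and 40.6 CPM in DEN_WT libraries, and 51.9 and 56.6 CPM in WT libraries. PR-SET7_LOBE replicates 2 and 3 were the lowest, and both groups overlapped with WT. The log2 fold changes against WT were -0.54 (SE 0.47) in PR-SET7_LOBE and -0.06 (SE 0.55) in DEN_WT, with adjusted p-values of 0.554 and 0.961 (edgeR). The 95% interval in DEN_WT, -1.28 to 1.16, runs to either side of 0, its sign turned under other scalings, and whether Slc1a2 differed from Glul or Rhbg was not tested.

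Lgr5 (chr10:114887367-115024836, minus strand, mm9) encodes a receptor for R-spondins and was the only one of the 10 genes with a difference past the threshold. It had 5.63, 8.51, 8.26 and 9.66 CPM in PR-SET7_LOBE libraries and 2.83 and 1.59 CPM in DEN_WT libraries, with 7.37 and 8.39 CPM in WT libraries. The means were 8.02 ± 1.70 CPM in PR-SET7_LOBE (SD, n = 4), 2.21 ± 0.879 CPM in DEN_WT and 7.88 ± 0.722 CPM in WT (SD, n = 2 each). All 4 PR-SET7_LOBE libraries lay above both DEN_WT libraries and overlapped with WT, whereas both DEN_WT libraries lay below both WT libraries. Lgr5 was 3.61-fold higher in PR-SET7_LOBE than in DEN_WT, or 1.85 on the log2 scale, with a 95% interval of 0.78 to 2.92 (SE 0.49, unadjusted p = 0.00285, adjusted p = 0.0322, edgeR). In DEN_WT against WT its log2 fold change was -1.83 (SE 0.53, unadjusted p = 0.00535), and the adjusted p of 0.0528 in edgeR's test missed the threshold. Against WT, PR-SET7_LOBE differed by 0.02 (SE 0.44, 95% interval -0.94 to 0.99, adjusted p = 0.985, edgeR), an interval that allows for differences in either direction.

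The call for Lgr5 between PR-SET7_LOBE and DEN_WT was lost when any library other than PR-SET7_LOBE replicate 1 was left out, with adjusted p-values between 0.0519 and 0.437 and log2 fold changes between 1.47 and 2.29. It was also lost without the filter (adjusted p = 0.0573) and with only the 2 groups fitted (adjusted p = 0.0603), settings that called 7.55% and 10.5% of all genes. The difference of DEN_WT from WT passed the threshold in DESeq2 (adjusted p = 0.0179), limma voom (adjusted p = 0.00383), the edgeR fit of only the 2 groups (adjusted p = 0.0278) and without PR-SET7_LOBE replicate 1 (adjusted p = 0.0148), and, at a log2 fold change of -2.05, after correction for GC content (adjusted p = 0.0145). Those settings called 18.1%, 36.3%, 37.8%, 26.5% and 12.3% of all genes in that order, against 9.73% here. Lgr5 overlaps A930009A15Rik, annotated on the opposite strand.

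Of the markers of B cells and of T and NK cells, Cd22 and Cd3d were low in the same 2 libraries as Lgr5, and the others were not lower as a group. Cd22 had 20.1, 14.4, 12.0 and 23.6 CPM in PR-SET7_LOBE libraries, 2.30 and 0.972 CPM in DEN_WT libraries, and 26.3 and 31.0 CPM in WT libraries. Cd3d had 13.8, 6.22, 4.08 and 6.47 CPM in PR-SET7_LOBE libraries, 0.354 and 0.265 CPM in DEN_WT libraries, and 13.97 and 13.6 CPM in WT libraries. In the DEN_WT libraries 3 counts correspond to 0.296 and 0.278 CPM before scaling, so the Cd3d levels there rest on few counts. Cd22 and Cd3d fell in DEN_WT against WT by 4.12 and 5.42 on the log2 scale (adjusted p = 0.00231 and 0.00237, edgeR). They were the only ones to pass there among 5 B cell and 5 tested T and NK cell markers, where 4.54% of all tested genes fell. The 5 B cell markers summed to between 19.5 and 32.4 CPM in PR-SET7_LOBE libraries, 1.94 and 5.05 CPM in DEN_WT libraries and 27.5 and 33.5 CPM in WT libraries. The 7 T and NK cell markers summed to between 10.2 and 16.2 CPM in PR-SET7_LOBE libraries, 2.21 and 2.65 CPM in DEN_WT libraries and 14.5 and 16.1 CPM in WT libraries. Cd22 and Cd3d made up most of these sums in WT libraries. Among the other markers, Cd3g and Ms4a1 were higher in both DEN_WT libraries than in both WT libraries (Cd3g was at 0 in WT), Cd2, Nkg7 and Cd79a had log2 fold changes of 0.16, 0.37 and 0.05, and Cd3e and Cd79b had -0.58 and -0.26. The 9 endothelial markers, whose cells supply Wnt ligands, summed to between 161 and 238 CPM in PR-SET7_LOBE, 204 and 209 CPM in DEN_WT and 177 and 254 CPM in WT libraries, and these ranges overlapped. The 7 macrophage and Kupffer cell markers summed to between 226 and 492 CPM in PR-SET7_LOBE, 161 and 215 CPM in DEN_WT and 237 and 716 CPM in WT libraries. These sums were lowest in the 2 DEN_WT libraries as well, and none of the 7 markers passed in any comparison. The part of cell composition in the Lgr5 values was not tested.

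**Figure D2:**
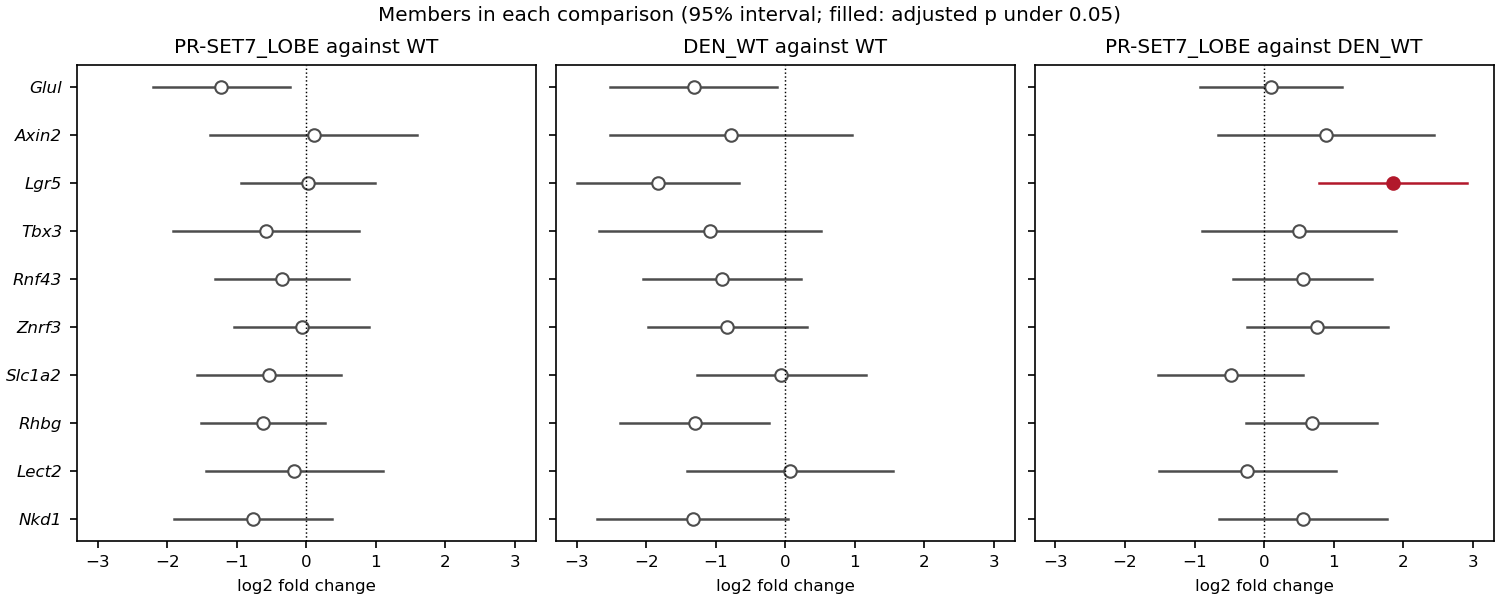
Log2 fold change of each of the 10 genes in the 3 comparisons, with the 95% interval as a line and a filled point at an adjusted p under 0.05 in edgeR's test. Lgr5 in PR-SET7_LOBE against DEN_WT, at 1.85, is the only filled point, and the intervals of Glul against WT lie below 0 in both groups.

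Axin2 (chr11:108781663-108812097, plus strand, mm9) is a scaffold of the destruction complex and a widely used reporter of beta-catenin activity. It had 10.8, 2.20, 7.43 and 7.38 CPM in PR-SET7_LOBE libraries, 4.43 and 3.09 CPM in DEN_WT libraries, and 10.4 and 2.49 CPM in WT libraries. The 2 WT libraries were almost as far apart as all 8 together, and the groups overlapped. Its log2 fold changes against WT were 0.11 (SE 0.68) in PR-SET7_LOBE and -0.78 (SE 0.79) in DEN_WT, with adjusted p-values of 0.949 and 0.537 (edgeR). The 95% intervals, -1.38 to 1.60 and -2.52 to 0.96, leave room for large differences in either direction. Both signs turned when a WT library was left out, to 0.61 in DEN_WT without WT replicate 1 and to -0.51 in PR-SET7_LOBE without WT replicate 2. Axin2 overlaps Gm11670 on the opposite strand.

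Nkd1 (chr8:91045243-91118786, plus strand, mm9) encodes an inhibitor that binds Dishevelled. It had 8.08, 2.39, 3.99 and 6.47 CPM in PR-SET7_LOBE libraries, 4.07 and 3.00 CPM in DEN_WT libraries, and 10.2 and 7.56 CPM in WT libraries. Only PR-SET7_LOBE replicate 1 among the libraries of that group reached the WT range, and both DEN_WT libraries lay below it. The log2 fold changes against WT were -0.76 (SE 0.52, adjusted p = 0.447) in PR-SET7_LOBE and -1.33 (SE 0.62, adjusted p = 0.187) in DEN_WT by edgeR. Nkd1 was also the gene of this set whose profile over the 8 libraries came closest to that of Glul.

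Rnf43 (chr11:87476224-87549041, plus strand, mm9) encodes a ubiquitin ligase that removes Frizzled receptors. It had 75.4, 33.5, 37.97 and 36.8 CPM in PR-SET7_LOBE libraries, 23.1 and 39.3 CPM in DEN_WT libraries, and 74.1 and 43.3 CPM in WT libraries. PR-SET7_LOBE replicate 1 and WT replicate 1 were the 2 high libraries, and the DEN_WT libraries lay below both WT libraries. The log2 fold changes against WT were -0.35 (SE 0.44, adjusted p = 0.684) in PR-SET7_LOBE and -0.91 (SE 0.52, adjusted p = 0.263) in DEN_WT by edgeR. Without WT replicate 1 the value in PR-SET7_LOBE was 0.07. Rnf43 overlaps another annotated gene on either strand.

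Znrf3 (chr11:5176327-5344850, minus strand, mm9) encodes the ubiquitin ligase related to Rnf43. It had 12.4, 6.70, 10.9 and 13.0 CPM in PR-SET7_LOBE libraries, 4.25 and 8.39 CPM in DEN_WT libraries, and 13.1 and 9.40 CPM in WT libraries. PR-SET7_LOBE libraries spanned the WT range, and DEN_WT libraries lay below it. Its log2 fold change was -0.07 (SE 0.44, adjusted p = 0.952) for PR-SET7_LOBE against WT, where the sign turned with upper-quartile scaling and with GC correction, and -0.83 (SE 0.52, adjusted p = 0.306) for DEN_WT against WT (edgeR).

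Tbx3 (chr5:120120678-120134733, plus strand, mm9) encodes a T-box transcription factor. It had 34.4, 6.70, 10.1 and 18.4 CPM in PR-SET7_LOBE libraries, 11.5 and 13.1 CPM in DEN_WT libraries, and 38.7 and 13.6 CPM in WT libraries. Replicate 1 was high in both PR-SET7_LOBE and WT, and DEN_WT replicate 2 lay just below WT replicate 2. The log2 fold changes against WT were -0.58 (SE 0.61, adjusted p = 0.619) in PR-SET7_LOBE and -1.09 (SE 0.72, adjusted p = 0.339) in DEN_WT by edgeR. Without WT replicate 1 the value in PR-SET7_LOBE was 0.35. Tbx3 overlaps Gm2301 on the opposite strand.

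Lect2 (chr13:56643821-56649899, minus strand, mm9) encodes a protein that hepatocytes secrete into the blood. It had 10.3, 8.04, 22.5 and 36.4 CPM in PR-SET7_LOBE libraries, 21.1 and 24.6 CPM in DEN_WT libraries, and 13.7 and 30.0 CPM in WT libraries. PR-SET7_LOBE libraries spread beyond the WT range on both sides, and DEN_WT libraries lay inside it. The log2 fold changes against WT were -0.18 (SE 0.58, adjusted p = 0.892) in PR-SET7_LOBE and 0.07 (SE 0.67, adjusted p = 0.962) in DEN_WT by edgeR, and both turned sign under another setting, with upper-quartile scaling in PR-SET7_LOBE and with GC correction in DEN_WT.

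Much of the spread of these genes lay between replicates of 1 group. PR-SET7_LOBE replicate 1 exceeded the mean of replicates 2 to 4 by between 0.33 and 1.66 on the log2 scale in 8 of the 10 genes and lay below it for Lgr5, by -0.62, and Lect2, by -0.85. WT replicate 1 exceeded WT replicate 2 by 1.99 for Axin2 and 1.5 for Tbx3, and the difference was -1.12 for Lect2. Lgr5 and Lect2 have the lowest transcript GC content of the 10 genes, 47.4% and 47.8%, and Axin2 has the highest, 57.7%. Across 17212 genes, which are not independent replicates, the deviation of PR-SET7_LOBE replicate 1 correlated with GC content at r = 0.619, while the difference between the WT replicates gave 0.105 and that between the DEN_WT replicates -0.03. The part of GC content in the values of replicate 1 was not tested. Without that library 1 of the 10 genes passed in PR-SET7_LOBE against WT (Glul), where 13.9% of all genes did. In DEN_WT against WT 3 of 10 then passed (Glul, adjusted p = 0.0423, Lgr5, 0.0148, and Rhbg, 0.0238, edgeR), where 26.5% of all genes did.

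**Figure D3:**
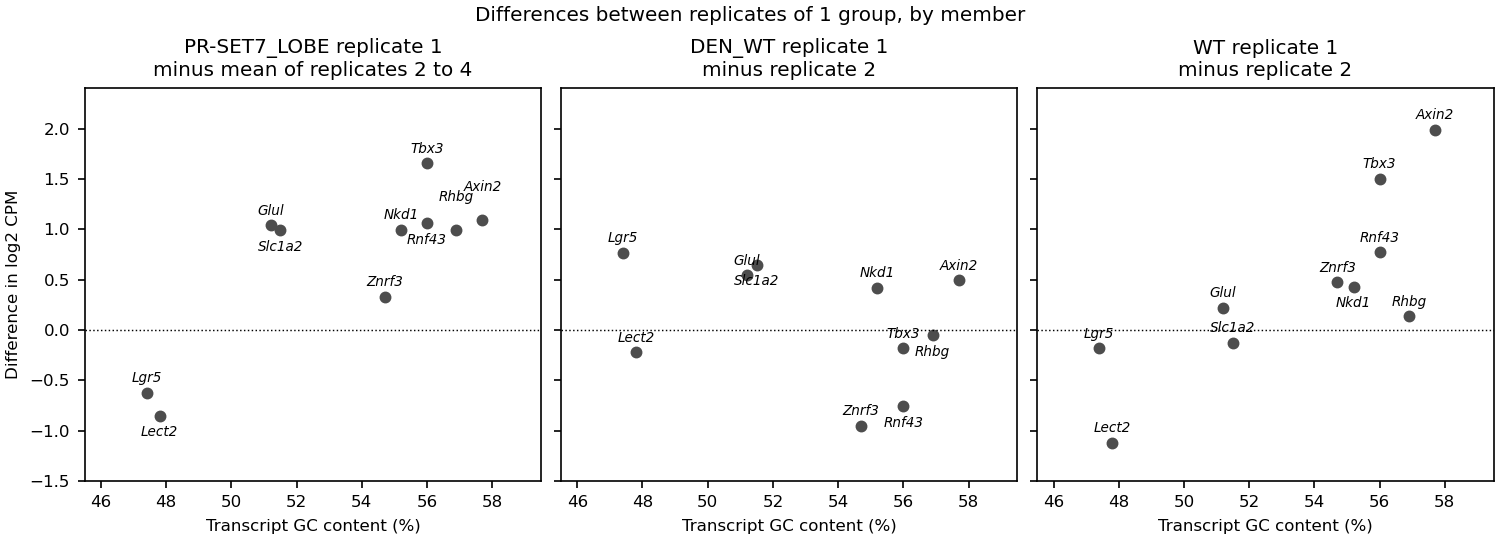
Difference in log2 CPM between replicates of 1 group for each of the 10 genes, plotted against transcript GC content in percent. In PR-SET7_LOBE replicate 1 the 2 genes below 0, Lgr5 and Lect2, are those of lowest GC content, and Axin2 has the widest gap between the WT replicates, 1.99.

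Likeness of profile was measured as the root mean square difference of log2 CPM, each gene centred on its own mean, over the 8 libraries and among 11210 genes. Closest to Glul, whose own SD was 0.72, were Hyal1 (0.11), which encodes a hyaluronidase, Hectd3 (0.198) and Scarb2 (0.201), a protein of the lysosomal membrane. Within the 10 genes the closest to Glul were Nkd1 (0.268) and Rhbg (0.342), and the farthest was Lgr5 (0.981). Closest to Lgr5 (own SD 0.828) were Rassf2 (0.131), Smyd4 (0.234) and Zfp933 (0.271). Closest to Axin2 (own SD 0.827) were Lima1 (0.375), Msl3l2 (0.381) and Mast4 (0.386), and among the 10 genes it was Tbx3 (0.54).

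Upstream of these targets, 15 of the 23 Wnt and R-spondin genes were measured well enough to test, and none passed in PR-SET7_LOBE against WT, where the median log2 fold change was 0.32. None had an unadjusted p under 0.05 either, and DESeq2 and limma voom called none, where all genes gave 17.2%, 5.13% and 1.24%. Without PR-SET7_LOBE replicate 4, where 11 genes of the list were tested, its median was -0.29. Wnt4 and Wnt5b fell in DEN_WT against WT (median -0.78), and both were higher in PR-SET7_LOBE than in DEN_WT (median 0.97). Of all tested genes, 4.54% fell in the first comparison and 4.82% were higher in the second. Wnt4 had 15.3, 19.7, 14.9 and 29.9 CPM in PR-SET7_LOBE libraries, 2.39 and 1.06 CPM in DEN_WT libraries, and 12.7 and 11.7 CPM in WT libraries. On the log2 scale it fell by 2.82 in DEN_WT against WT (SE 0.55, adjusted p = 0.0113) and was higher by 3.52 in PR-SET7_LOBE than in DEN_WT (SE 0.54, adjusted p = 0.00223, edgeR). Leaving out WT replicate 1 or DEN_WT replicate 2 raised the adjusted p for DEN_WT against WT to 0.0559 and 0.144.

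Wnt5b, a ligand known mainly for signalling without beta-catenin, had 21.1, 16.9, 8.36 and 11.5 CPM in PR-SET7_LOBE libraries, 3.98 and 3.36 CPM in DEN_WT libraries, and 18.2 and 19.8 CPM in WT libraries. It fell by 2.37 in DEN_WT against WT (adjusted p = 0.0182) and was higher by 1.98 in PR-SET7_LOBE than in DEN_WT (adjusted p = 0.0214, edgeR). The first call was lost without any 1 of the 4 DEN_WT and WT libraries (adjusted p between 0.0743 and 0.183) and the second without either DEN_WT library (0.168 and 0.275). Wnt5b overlaps Fbxl14. The ligands of the central vein, named here after their values were seen, did not pass in any comparison. Wnt2 had 5.63, 2.10, 1.30 and 3.10 CPM in PR-SET7_LOBE, 2.66 and 7.77 CPM in DEN_WT, and 4.02 and 5.16 CPM in WT libraries. Wnt9b ranged from 1.72 to 8.64 CPM in PR-SET7_LOBE, had 2.30 and 2.03 CPM in DEN_WT, and had 3.83 and 4.89 CPM in WT libraries. Rspo3, the R-spondin of the central vein, lay between 2.77 and 4.56 CPM in all 8 libraries.

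The 17 listed receptors and co-receptors have 18 entries in the count table. Of these entries, 15 were tested and none passed in any comparison in the edgeR fit reported here. At an unadjusted p under 0.05 there were 2 in PR-SET7_LOBE against WT, 1 in DEN_WT against WT and 3 in PR-SET7_LOBE against DEN_WT. All genes gave 17.2%, 28.9% and 25.8% in that order. DESeq2 called 1, 0 and 0, beside 5.13%, 18.1% and 16.4% of all genes, and limma voom 0, 3 and 2, beside 1.24%, 36.3% and 29.7%. Without PR-SET7_LOBE replicate 1, edgeR called 1 in PR-SET7_LOBE against WT and 2 in DEN_WT against WT, beside 13.9% and 26.5% of all genes. In the fit of only the 2 groups it called 2 of 11 tested in DEN_WT against WT, beside 37.8%. Lgr4, the R-spondin receptor related to Lgr5, had 16.3, 24.8, 33.2 and 26.8 CPM in PR-SET7_LOBE libraries, 33.6 and 40.2 CPM in DEN_WT libraries, and 42.6 and 52.6 CPM in WT libraries. All 4 PR-SET7_LOBE libraries lay below WT, as for 10.5% of all tested genes, and the difference was -0.91 on the log2 scale (adjusted p = 0.239, edgeR). The order of groups for Lgr4 was therefore not that of Lgr5, for which the DEN_WT libraries were the lowest.

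Secreted inhibitors hold Wnt ligands or their receptors in check. Of 12 tested, none passed in PR-SET7_LOBE against WT in the edgeR fit reported here or in limma voom (median 0.49). There 4 had an unadjusted p under 0.05 and DESeq2 called 1, beside 17.2% and 5.13% of all genes. EdgeR called 2 of 11 tested without PR-SET7_LOBE replicate 1, where 13.9% of all genes passed. The median was -0.02 without PR-SET7_LOBE replicate 4 and -0.33 with the stricter filter, with 9 and 5 genes of the list tested. In the other comparisons 1 fell in DEN_WT against WT (median -1.01) and 2 were higher in PR-SET7_LOBE than in DEN_WT (median 1.86). The shares of all tested genes were 4.54% and 4.82%. Dkk1, which blocks Lrp5 and Lrp6 and is itself a known beta-catenin target, had 9.96, 5.17, 3.25 and 9.38 CPM in PR-SET7_LOBE libraries, 0.177 CPM in each of the 2 DEN_WT libraries, and 9.28 and 12.9 CPM in WT libraries. The DEN_WT level rests on 2 counts in each library. On the log2 scale Dkk1 fell by 5.88 in DEN_WT against WT (SE 0.81, 95% interval -7.66 to -4.10, adjusted p = 0.00232) and was higher by 5.21 in PR-SET7_LOBE than in DEN_WT (SE 0.77, adjusted p = 0.00202, edgeR). Dkk2, another inhibitor of the same family, had 1.69, 3.73, 2.79 and 4.92 CPM in PR-SET7_LOBE and 0.531 and 0.707 CPM in DEN_WT libraries, with 0.957 and 1.199 CPM in WT libraries. It was higher in PR-SET7_LOBE than in DEN_WT by 2.39 (SE 0.68, adjusted p = 0.0465, edgeR). The 2 Dkk1 calls held in all 18 alternative settings. That of Dkk2 was lost without any 1 library other than PR-SET7_LOBE replicate 1 (adjusted p between 0.0608 and 0.369), and also with DESeq2 size factors (0.0517), with upper-quartile scaling (0.0503), without the filter (0.0848) and with only the 2 groups fitted (0.0658).

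Inside the cell, 15 genes of Dishevelled and the destruction complex and 14 genes of beta-catenin and its nuclear partners were tested. None of either list passed in any comparison in the edgeR fit reported here. At an unadjusted p under 0.05 the first list gave 1, 4 and 1 genes and the second 3, 2 and 1. The order is PR-SET7_LOBE against WT, DEN_WT against WT and PR-SET7_LOBE against DEN_WT, where 17.2%, 28.9% and 25.8% of all genes were. DESeq2 called 0, 1 and 0 of the first and 0, 1 and 1 of the second, beside 5.13%, 18.1% and 16.4% of all genes. Limma voom called 0, 4 and 2 of each, beside 1.24%, 36.3% and 29.7%. Without PR-SET7_LOBE replicate 1, edgeR called 3 of the first list and 4 of the second in PR-SET7_LOBE against WT, beside 13.9% of all genes. In DEN_WT against WT it called 3 and 2 without that library, beside 26.5%. In the fit of only the 2 groups it called 3 and 3, beside 37.8%, and without the filter 1 and 0, beside 7.87%. Ctnnb1, which encodes beta-catenin, had 84.7, 147, 147 and 115 CPM in PR-SET7_LOBE libraries, 171 and 196 CPM in DEN_WT libraries, and 134 and 148 CPM in WT libraries. Its log2 fold changes against WT were -0.19 (SE 0.36, adjusted p = 0.799) in PR-SET7_LOBE and 0.38 (SE 0.42, adjusted p = 0.576) in DEN_WT by edgeR. For Ctnnb1 both DEN_WT libraries lay above both WT libraries, as they did for 37.8% of all tested genes. For 7 of the 10 targets they lay below, as for 33.3% of all tested genes.

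Among 14 tested Wnt targets known from other tissues, such as intestine, Ephb2 was the only one to pass in the edgeR fit reported here. Of all tested genes, 4.54% fell in DEN_WT against WT and 4.82% were higher in PR-SET7_LOBE than in DEN_WT. In DEN_WT against WT edgeR also called 1 gene higher with upper-quartile scaling, the stricter filter or GC correction. Those settings called 9.29%, 12.7% and 12.3% of all genes. There DESeq2 called 2 genes of the list and limma voom 3, beside 18.1% and 36.3% of all genes. Ephb2, a receptor of ephrins, had 30.3, 8.51, 19.7 and 9.66 CPM in PR-SET7_LOBE libraries, 0.443 and 0.265 CPM in DEN_WT libraries, and 9.67 and 5.62 CPM in WT libraries. In the DEN_WT libraries 3 counts correspond to 0.296 and 0.278 CPM before scaling, so the Ephb2 levels there rest on few counts. Ephb2 fell by 4.39 in DEN_WT against WT (SE 0.80, adjusted p = 0.00823) and was higher by 5.55 in PR-SET7_LOBE than in DEN_WT (SE 0.80, adjusted p = 0.00182, edgeR). Without DEN_WT replicate 1 or replicate 2 the first adjusted p was 0.0542 and 0.0959. In PR-SET7_LOBE against WT no gene of this list passed in the edgeR fit reported here. EdgeR called 1 with upper-quartile scaling or GC correction and 2 without the filter or without PR-SET7_LOBE replicate 1. Those settings called 0.38%, 0.87%, 1.39% and 13.9% of all genes. At an unadjusted p under 0.05 there were 3, in DESeq2 3 and in limma voom 2, beside 17.2%, 5.13% and 1.24% of all genes. The list median was 0.97, while that of the 10 liver targets was -0.45.

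**Figure D4:**
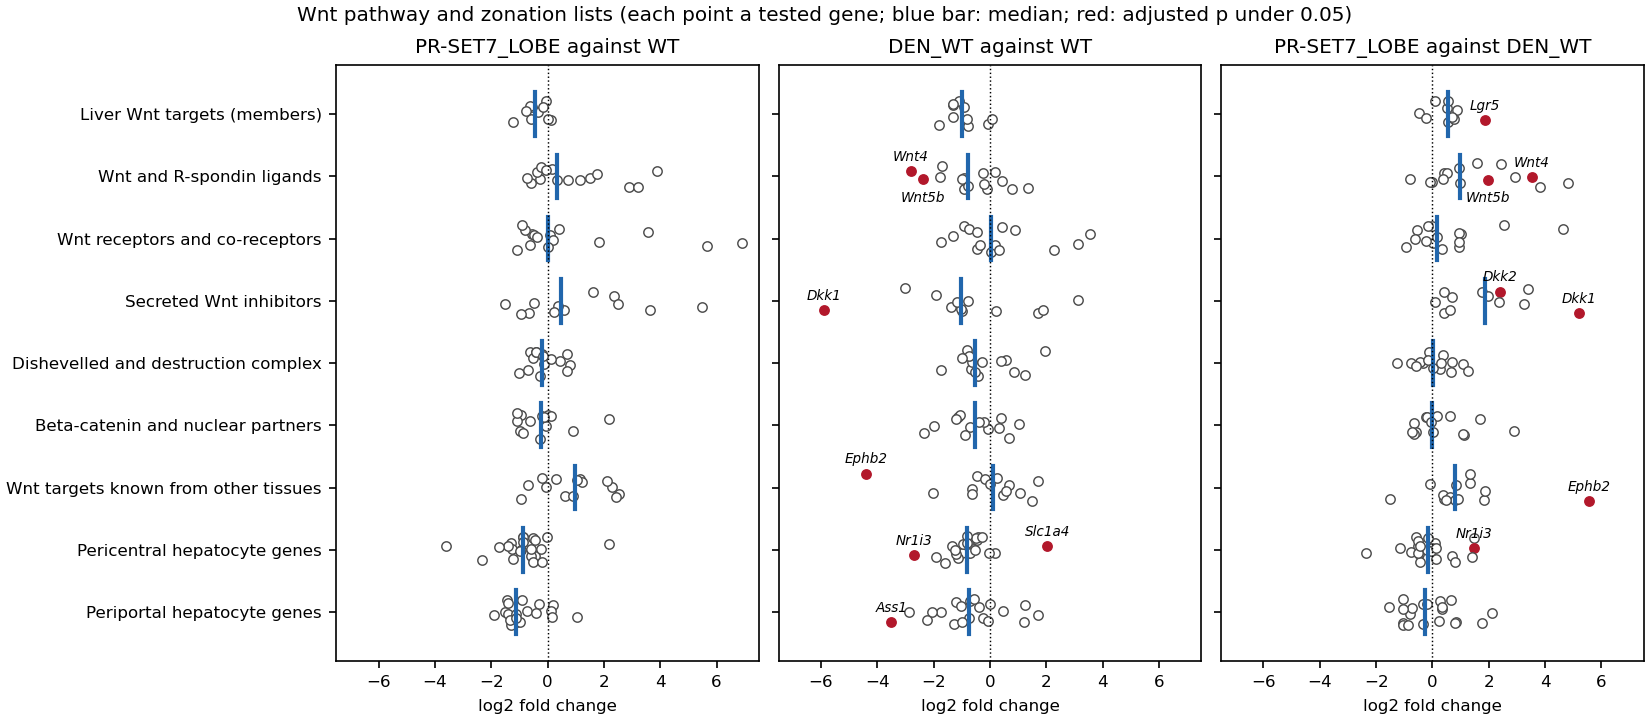
Log2 fold change of every tested gene of the 10 liver Wnt targets and 8 further lists in the 3 comparisons, with the list median as a blue bar and genes at an adjusted p under 0.05 in red. No gene is red in PR-SET7_LOBE against WT. Dkk1, at -5.88 in DEN_WT against WT, lies farthest from 0 among the red points.

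The zones of the lobule were compared because the 10 genes mark its central part. Of 22 tested pericentral genes, 21 had a log2 fold change below 0 in PR-SET7_LOBE against WT (median -0.87) and 20 in DEN_WT against WT (median -0.81). Periportal genes were below 0 as well, for 16 of 20 in each comparison, with medians of -1.11 in PR-SET7_LOBE and -0.73 in DEN_WT. The medians were below 0 for both zones, and no gene of either list passed in PR-SET7_LOBE against WT in the edgeR fit reported here. At an unadjusted p under 0.05 there were 7 of 22 pericentral and 7 of 20 periportal genes, where 17.2% of all genes were. DESeq2 called 5 and 3, beside 5.13% of all genes, and limma voom 1 and 4, beside 1.24%. EdgeR called 7 of 22 and 7 of 20 without PR-SET7_LOBE replicate 1, beside 13.9% of all genes. Without the filter it called 4 and 1, beside 1.39%. Nr1i3, a nuclear receptor that induces drug-metabolising enzymes, had 66.4, 96.0, 89.4 and 77.8 CPM in PR-SET7_LOBE libraries, 26.5 and 33.0 CPM in DEN_WT libraries, and 172 and 215 CPM in WT libraries. In PR-SET7_LOBE against WT, DESeq2 called it at -1.22 on the log2 scale (adjusted p = 0.012). EdgeR called that difference without PR-SET7_LOBE replicate 1, at -1.13 (adjusted p = 0.0304). Nr1i3 fell by 2.70 in DEN_WT against WT (SE 0.42, adjusted p = 0.00358) and was higher by 1.47 in PR-SET7_LOBE than in DEN_WT (SE 0.37, adjusted p = 0.0256, edgeR). These 2 edgeR calls were lost without DEN_WT replicate 1 (log2 fold changes -2.53 and 1.29) or replicate 2 (-2.85 and 1.61). The second was also lost without PR-SET7_LOBE replicate 2 (0.0531) or replicate 3 (0.0503) and without the filter (0.0626). Nr1i3 overlaps Tomm40l.

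Slc1a4, a transporter of neutral amino acids, had 28.1, 14.6, 50.5 and 45.0 CPM in PR-SET7_LOBE libraries, 28.7 and 34.6 CPM in DEN_WT libraries, and 7.37 and 8.02 CPM in WT libraries. It rose in DEN_WT against WT by 2.04 (SE 0.56, adjusted p = 0.0439, edgeR), where 5.18% of all tested genes rose. Every PR-SET7_LOBE library lay above both WT libraries too, as for 11.6% of all tested genes. This difference of Slc1a4 did not pass in the edgeR fit reported here. DESeq2 called that difference at 2.18 (adjusted p = 0.00245), as did edgeR without PR-SET7_LOBE replicate 1, at 2.26 (adjusted p = 0.0296). On the periportal side Ass1, an enzyme of the urea cycle, had 1529, 581, 171 and 679 CPM in PR-SET7_LOBE libraries, 197 and 146 CPM in DEN_WT libraries, and 1953 and 1949 CPM in WT libraries. It fell by 3.51 in DEN_WT against WT (SE 0.85, adjusted p = 0.0287, edgeR), where 4.54% of all tested genes fell. The Slc1a4 and Ass1 calls in DEN_WT against WT were lost whenever 1 DEN_WT or WT library was left out. The log2 fold changes were then 1.915 to 2.20 for Slc1a4 and -3.72 to -3.29 for Ass1. Gls2, the glutaminase of periportal hepatocytes and the counterpart of Glul, had 239, 82.2, 75.0 and 128 CPM in PR-SET7_LOBE libraries, 231 and 226 CPM in DEN_WT libraries, and 354 and 399 CPM in WT libraries, and did not pass (log2 fold change against WT -1.52 in PR-SET7_LOBE, adjusted p = 0.173, and -0.72 in DEN_WT, adjusted p = 0.416, edgeR). Gls2, like Glul, was lower in every PR-SET7_LOBE and DEN_WT library than in both WT libraries. Of all tested genes, 10.5% lay below WT in this way in PR-SET7_LOBE and 33.3% in DEN_WT.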

How the data were processed

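Poly(A) RNA of mouse liver was sequenced in 8 libraries on an Ion Proton, per the labels' protocols. The authors deposited raw read counts per Ensembl gene on the mm9 build, with gene names and coordinates. TopHat2 2.0.9, Cufflinks and DESeq are named in the submitters' processing notes. Not given in the sources used here are the counting tool, the annotation, whether strand was used and how multiply mapped reads were treated, so values of overlapping or near-identical genes are uncertain.

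Groups follow the labels. Genes were filtered with filterByExpr of edgeR 4.0.16 in R 4.3.3, scaled by TMM and tested with the robust quasi-likelihood test, with all 8 libraries in 1 fit, group as the only term and Benjamini-Hochberg adjustment over the 17362 tested genes. The common biological coefficient of variation was 0.479. For CPM, counts were divided by library sizes after TMM adjustment, and SE and 95% intervals are those of the log2 fold change. Levels per kilobase used the merged length of all annotated exons of a gene, and GC content was the mean over its transcripts. Both came from GENCODE M21, matched by identifier or symbol for 93.6% of the genes, with no coordinates taken from that build. Copies were searched with blastn 2.17.0. Replicates differed by more than sampling noise, with a chi-square of at least 30.3 per degree of freedom.

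The 10 genes and the lists were chosen with earlier results of these data known. Named from each other list were the up to 3 tested genes of smallest p in each comparison and any gene that passed, of which the report describes those that passed and some others by their role. Genes of like profile were drawn from named genes with a mean log2 CPM of at least 1. Alternatives were DESeq2 size factors, upper-quartile scaling, DESeq2 1.42.0, limma 3.58.1 (voom with quality weights), no filter, a filter of 5 CPM in 2 libraries, fits of 2 groups at a time, a block for the replicate number, GC correction, leaving out the 20 most abundant genes, and leaving out each library in turn. The sum of Glul and Glns-ps1 was added after seeing the data. The steps were tested on simulated counts.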

Additional observations from a re-analysis of the deposited data

Results flagged for a closer look

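For Rnf43 in the PR-SET7_LOBE group, replicate 1 stood at 75.4 CPM and the other 3 libraries between 33.5 and 37.97 CPM. The gap between replicate 1 and the nearest library made up 0.893 of the whole range of the group, above the 0.829 that Dixon's test allows for 4 values. About 1 in 20 groups passes this limit by chance, and 10 genes were examined. The same library stood above the mean of the other 3 by 1.06 on the log2 scale for Rnf43 and by more for Tbx3 (1.66) and Axin2 (1.09), which did not pass the limit. Without it the log2 fold change of Rnf43 in PR-SET7_LOBE against WT was -0.70 (adjusted p = 0.152, edgeR), against -0.35 with it. The cause of the high value was not tested.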

How the results depend on the processing

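Each of the 10 genes was recomputed in 3 comparisons under 18 planned settings. Of these 540 values, 516 stayed on their side of the threshold, 14 gained a call and 10 lost one, and no value was called with a sign opposite to the one reported. The sign differed for 39 values of 8 genes, none of them called, and Rhbg and Nkd1 were the 2 genes without such a value. The 14 gained calls were Glul in PR-SET7_LOBE against WT without PR-SET7_LOBE replicate 1, and Glul, Lgr5, Rhbg and Nkd1 in DEN_WT against WT. The 10 lost calls all concerned Lgr5 in PR-SET7_LOBE against DEN_WT.

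In DEN_WT against WT, DESeq2 called 1 of the 10 genes (18.1% of all genes), limma voom 4 (36.3%), the fit of only the 2 groups 4 (37.8%) and GC correction 1 (12.3%). In PR-SET7_LOBE against DEN_WT, 0 were called without the filter (7.55% of all genes) and in the fit of only the 2 groups (10.5%). Leaving out 1 library gave 0 to 1 of the 10 genes in PR-SET7_LOBE against WT, 0 to 3 in DEN_WT against WT and 0 to 1 in PR-SET7_LOBE against DEN_WT.

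Over all genes, PR-SET7_LOBE against WT gave 43 calls, and 66 with upper-quartile scaling, 890 in DESeq2, 216 in limma voom, 419 without the filter, 19 in the fit of only the 2 groups and 151 with GC correction. DEN_WT against WT gave 1689 calls, and 3144 in DESeq2, 6301 in limma voom and 5643 in the fit of only the 2 groups. PR-SET7_LOBE against DEN_WT gave 1924 calls, and 5164 in limma voom. Leaving out 1 library gave 1 to 2392 calls in PR-SET7_LOBE against WT, 329 to 4549 in DEN_WT against WT and 454 to 2662 in PR-SET7_LOBE against DEN_WT, with the highest count in each case without PR-SET7_LOBE replicate 1. The causes were not tested. Without 1 WT or DEN_WT library, the fit took the spread of the remaining one from the other groups.

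Whether equal replicate numbers pair the libraries cannot be told from these values, since each comparison offers only 2 such pairs. The deviations of same-numbered libraries correlated at 0.165 and 0.106 between PR-SET7_LOBE and WT and at 0.0599 between DEN_WT and WT. Between PR-SET7_LOBE and DEN_WT the values were -0.00874 and 0.02. In a group of 2 libraries the deviations mirror each other, so the 2 pairs of DEN_WT and WT give the same value. With the number as a block, 0 of the 10 genes were called in any comparison. Lgr5 in PR-SET7_LOBE against DEN_WT stood at 1.67 (adjusted p = 0.0824, edgeR), and the Dkk2 call there was lost too (2.05, adjusted p = 0.101, edgeR). All genes gave 243, 3137 and 2609 calls in PR-SET7_LOBE against WT, DEN_WT against WT and PR-SET7_LOBE against DEN_WT. With 2 libraries in each of DEN_WT and WT, the 95% interval of the difference included 0 for 7 of the 10 genes. Among these, Nkd1 was called in limma voom (adjusted p = 0.0196) and in the edgeR fit of only the 2 groups (adjusted p = 0.0427).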

Other observations

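Among the Wnt targets known from other tissues, Ccnd1 and Sox9, chosen here after their values were seen, had log2 fold changes above 2 in PR-SET7_LOBE against WT that did not pass the threshold, while Myc, Sp5, Tnfrsf19 and Porcn had values below 0 (-0.69, -0.21, -0.07 and -0.93). Ccnd1, a cyclin of the G1 phase, had 149, 166, 62.9 and 75.1 CPM in PR-SET7_LOBE libraries, 72.4 and 55.7 CPM in DEN_WT libraries, and 23.3 and 15.9 CPM in WT libraries. Its log2 fold change against WT was 2.53 (SE 0.52, adjusted p = 0.0834) in PR-SET7_LOBE and 1.71 (SE 0.54, adjusted p = 0.0695) in DEN_WT by edgeR, and Ccnd1 overlaps Oraov1. Sox9, a transcription factor of bile duct cells, had 48.7, 17.8, 30.9 and 21.0 CPM in PR-SET7_LOBE libraries, 11.2 and 12.1 CPM in DEN_WT libraries, and 7.56 and 3.50 CPM in WT libraries. Its log2 fold change against WT was 2.42 (SE 0.54, adjusted p = 0.0954, edgeR) in PR-SET7_LOBE. The 7 cholangiocyte markers summed to between 22.6 and 72.4 CPM in PR-SET7_LOBE libraries, 39.1 and 47.2 CPM in DEN_WT libraries and 25.5 and 45.0 CPM in WT libraries, and their part in the Sox9 values was not tested.

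Some pathway genes were near the counting floor in most libraries and spread widely within PR-SET7_LOBE. Their higher values lay in PR-SET7_LOBE replicates 3 and 4, which had a count for 26437 and 24812 genes of the whole table. The other libraries had a count for 18037 to 22271 genes. The part of this library-wide difference in the values below was not tested. Wnt3 had 0.188, 0, 1.76 and 4.28 CPM in PR-SET7_LOBE libraries, 0 and 0.0883 CPM in DEN_WT libraries, and 0.191 and 0 CPM in WT libraries. Fzd10, a Frizzled receptor, had 0.188, 0.383, 1.11 and 3.83 CPM in PR-SET7_LOBE libraries, 0.0886 and 0 CPM in DEN_WT libraries, and 0 CPM in both WT libraries. Neither passed the threshold against WT (adjusted p = 0.323 and 0.195, edgeR). A further entry named Fzd10 overlaps the one given here on the same strand, so the Fzd10 values are uncertain.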
